A study of Homo sapiens with 16 samples.

Results

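The 36 interferon-stimulated genes described here were taken from a named list that spans the response from its transcription factors to its antiviral effectors. They are 36 of the 56865 genes with a transcript in the deposited tables, and 30 of them were among the 15687 genes that passed the filter on low counts and were tested. The cells were NCI-H1299, a human line from a non-small cell lung carcinoma that makes no p53, and a derivative that stably expresses p53 with the mutation Y220C, and poly(A) RNA was sequenced. MS78 was designed to recruit p300 and CBP, which acetylate proteins, to the Y220C mutant. The 4 groups of 4 libraries were p53-Y220C cells given 10 µM MS78 for 24 h (Y220C MS78), p53-Y220C cells given vehicle (Y220C DMSO), p53-null cells given 10 µM MS78 for 24 h (Null MS78) and p53-null cells given vehicle (Null DMSO). G418 at 500 µg/mL was in the medium of the p53-Y220C line only, so effects of the transgene, of G418 and of the line cannot be told apart. Whether the stable line is 1 clone or a pool, and whether replicates were separate cultures, is not given in the sources used here, and each p-value therefore covers only the spread among these libraries, which may be technical. In bulk RNA, fewer cells expressing a gene and less RNA per cell cannot be told apart.

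Interferons bind surface receptors whose kinases phosphorylate STAT proteins such as STAT2. STAT2 and IRF9 are subunits of the factor ISGF3, which binds the interferon-stimulated response element in the promoters of many of these genes, and factors such as IRF1 can bind closely related elements. Sensors of viral RNA such as IFIH1 induce interferons in turn, and effectors such as the IFIT, OAS, MX and IFITM proteins interfere with viral entry, translation or replication.

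The windows below lie before genes that moved together and before relatives that did not, and each holds a match to the motif described next. They are RefSeq promoter windows of GRCh38.p14, each 300 bases on the plus strand (250 before to 50 after a start site), and capitals mark each match to the core motif of the response element, GAAA with any 2 bases and a further GAAA, on either strand (on the minus strand a match reads TTTC, any 2 bases, TTTC). IFIT1, IFIT3 and HERC5 rose with MS78 in p53-Y220C cells. IFIT5, a neighbour of IFIT1, was not called, and OAS3 fell. Their windows are chr10:89392373-89392672, chr10:89327747-89328046, chr4:88456869-88457168, chr10:89414318-89414617 and chr12:112938224-112938523, in the order shown.
IFIT1: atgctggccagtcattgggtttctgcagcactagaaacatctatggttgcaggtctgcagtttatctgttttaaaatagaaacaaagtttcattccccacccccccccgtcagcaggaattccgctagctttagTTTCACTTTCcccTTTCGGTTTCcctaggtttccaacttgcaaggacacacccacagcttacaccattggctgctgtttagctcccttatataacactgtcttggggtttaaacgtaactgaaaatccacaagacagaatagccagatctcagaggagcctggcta
IFIT3: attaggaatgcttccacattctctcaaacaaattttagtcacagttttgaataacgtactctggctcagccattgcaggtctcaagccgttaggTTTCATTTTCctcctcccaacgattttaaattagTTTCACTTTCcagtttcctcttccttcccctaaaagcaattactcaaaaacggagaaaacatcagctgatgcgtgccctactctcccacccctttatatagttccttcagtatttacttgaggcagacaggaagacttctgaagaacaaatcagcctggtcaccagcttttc
HERC5: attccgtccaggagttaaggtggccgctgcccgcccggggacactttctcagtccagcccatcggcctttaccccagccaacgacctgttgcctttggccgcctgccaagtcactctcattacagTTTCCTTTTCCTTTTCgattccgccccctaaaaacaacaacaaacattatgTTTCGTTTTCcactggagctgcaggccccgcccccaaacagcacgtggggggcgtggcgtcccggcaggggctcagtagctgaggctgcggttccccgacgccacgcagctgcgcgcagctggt
IFIT5: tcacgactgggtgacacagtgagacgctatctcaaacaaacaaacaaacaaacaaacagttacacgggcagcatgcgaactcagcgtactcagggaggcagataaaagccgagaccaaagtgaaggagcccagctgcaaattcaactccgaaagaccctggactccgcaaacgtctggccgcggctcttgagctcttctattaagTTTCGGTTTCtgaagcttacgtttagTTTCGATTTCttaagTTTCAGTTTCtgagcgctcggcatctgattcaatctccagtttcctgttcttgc
OAS3: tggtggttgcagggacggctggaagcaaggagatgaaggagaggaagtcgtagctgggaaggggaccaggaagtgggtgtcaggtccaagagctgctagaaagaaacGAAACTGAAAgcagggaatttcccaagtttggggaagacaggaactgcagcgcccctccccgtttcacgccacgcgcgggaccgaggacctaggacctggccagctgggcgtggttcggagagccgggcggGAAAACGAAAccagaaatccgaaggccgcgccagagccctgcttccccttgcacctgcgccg

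The windows of IFIT1, IFIT3 and OAS3 held 2 matches each, and those of HERC5 and IFIT5 held 3 each, of which 2 in HERC5 overlap. In IFIT1, IFIT3, HERC5 and IFIT5 every match was on the minus strand, and in OAS3 both were on the plus strand. A second RefSeq window of IFIT3, chr10:89332279-89332578, also held 2 matches. Of the 36 members, 28 had a window and 20 of these held the motif in at least 1 window, against 4.38% of the 27305 genes in the table and 3.57% of its 35116 windows. The motif was in the windows of 7 of the 9 members with a window that were higher with MS78 in p53-Y220C cells, of 5 of the 7 that were lower and of 6 of the 8 that were not called. The windows of STAT2 and IRF1, which were higher, and of HERC6 and IFI35, which were lower, held no match. IRF7, DHX58, USP18, IFIT2, OAS2, OASL, MX2 and IFITM2 had no window in the table.

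Estimated reads per library were 20.3 M to 21.8 M in Y220C MS78, 20.7 M to 23.2 M in Y220C DMSO, 20.7 M to 27.7 M in Null MS78 and 22.5 M to 24.7 M in Null DMSO. At this depth a count of 0 allows up to 3 reads, a limit that covers counting error only. The keratin genes KRT8 and KRT18, markers of an epithelial carcinoma line, had at least 3748 and 5911 reads in every library. The leukocyte gene PTPRC had 55 to 99 reads in 8 libraries and 0 to 1 in the other 8. Those with PTPRC reads were replicates 2, 3 and 4 of both MS78 groups and replicate 1 of both DMSO groups. Of 14 leukocyte markers, 13 (all but CORO1A) had more reads in each of these 8 libraries than in any other. PTPRC is itself among the 14 and the 13, and its separation follows from the split. It is also included in the sums below. The summed level of all 14 was 62.0 to 126 CPM with PTPRC reads and 2.60 to 11.8 CPM without. Leaving out CORO1A and LAPTM5, the sum was 47.7 to 114 CPM with and 0.0966 to 0.393 CPM without. None of the 36 members had more reads in each of these 8 libraries than in any other. Wherever 4 values of a group are listed here they run from replicate 1 to replicate 4, so that the first value of an MS78 group is its only library without PTPRC reads, and the first value of a DMSO group is its only library with them.

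The interferon-stimulated genes spanned a wide range of levels, and the order of the highest was shared by the 4 groups in large part. Levels are compared between genes in TPM, the deposited unit that scales reads by transcript length and by library. IFITM3, which blocks fusion of viral and cellular membranes, was the highest, at 209 ± 15.2 TPM in Y220C MS78, 276 ± 5.38 TPM in Y220C DMSO, 363 ± 8.27 TPM in Null MS78 and 386 ± 18.1 TPM in Null DMSO (SD, n = 4 each). In p53-Y220C cells ISG15, a ubiquitin-like modifier, came next, with 113 to 122 TPM in Y220C MS78 and 95.7 to 109.8 TPM in Y220C DMSO. IFITM2 followed, with 58.4 to 70.8 TPM in Y220C MS78 and 84.2 to 90.9 TPM in Y220C DMSO. In p53-null cells IFITM2 was above ISG15 in every library, at 160.1 to 176 TPM in Null MS78 and 148 to 179 TPM in Null DMSO. IFI6 was the fourth in each group, and its range in Y220C MS78 (57.4 to 61.2 TPM) overlapped that of IFITM2. IFI35 was the fifth in each group, and in Y220C MS78 its 21.9 to 26.0 TPM overlapped the 18.5 to 24.0 TPM of STAT2. BST2 ranked 21 of 36 in Y220C MS78 and 25 in Y220C DMSO, and 6 in both p53-null groups. IFIT2 ranked 11 in Y220C MS78 and 21 in Y220C DMSO, and 23 in both p53-null groups. At the low end, RSAD2, XAF1, IFI44L and MX2 each averaged no more than 0.130 TPM in any group.

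**Figure D1:**
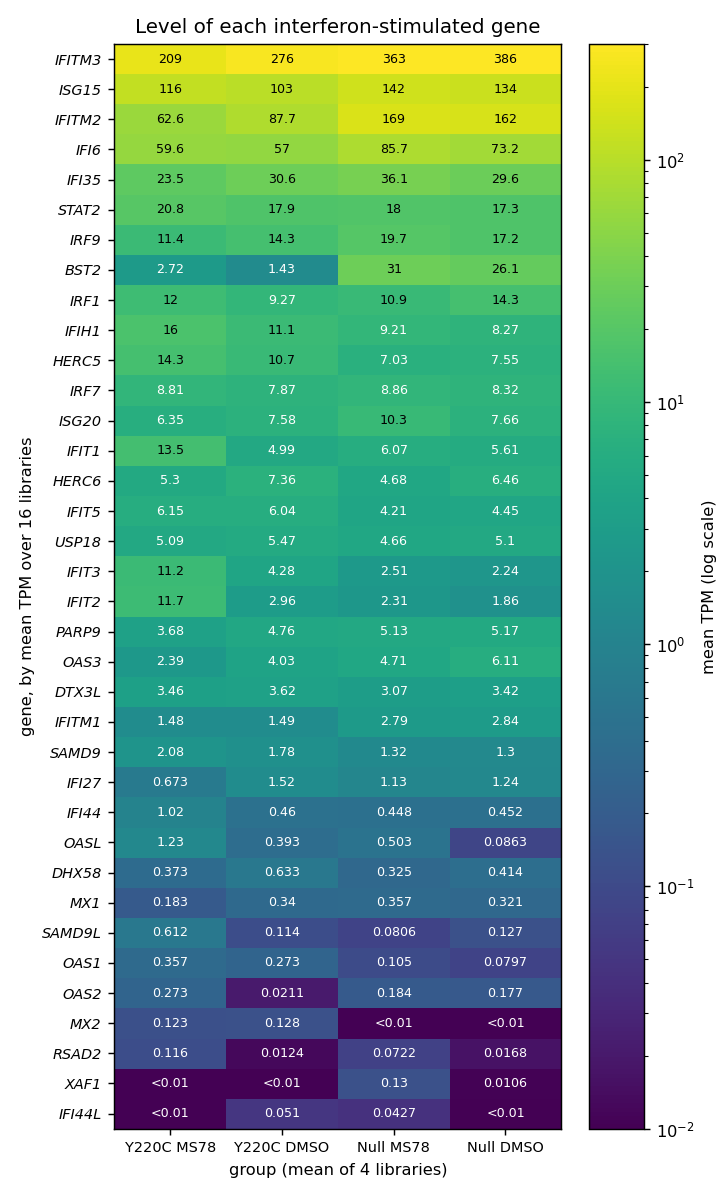
Mean TPM of each of the 36 interferon-stimulated genes (rows, ordered by the mean over 16 libraries) in the 4 groups (columns, n = 4 libraries each), with colour on a log scale and the mean printed in each cell. IFITM3 leads in each group, and BST2 stands at 2.72 and 1.43 TPM in the p53-Y220C groups and at 31.0 and 26.1 TPM in the p53-null groups.

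Exposure to MS78 moved interferon-stimulated genes in both directions in p53-Y220C cells. IFIT1, IFIT2, IFIT3, OASL, IFIH1 and HERC5 were among those that rose, and OAS3, IFITM2, IFITM3, IFI35 and HERC6 among those that fell. In p53-null cells OASL rose too, while IFIT1, IFIT2 and IFIT3 differed by at most 1.17-fold and were not called. Levels of 1 gene across libraries are given in CPM, reads scaled to the library's total, or in reads for genes with few. A gene was called at an adjusted p under 0.05 by edgeR's quasi-likelihood test with Benjamini-Hochberg adjustment over all 15687 genes. In p53-Y220C cells 21 of the 30 members tested (70.0%) were called, where 48.5% of all genes were. Of these, 13 were higher and 8 lower, and 24.9% and 23.6% of all genes were called in these directions. The 4 MS78 libraries did not overlap the 4 DMSO libraries for 10 higher and 8 lower members, and this held for 41.3% of all genes. The median log2 fold change of the 30 members tested was 0.16, and that of all genes was -0.01. In p53-null cells 8 of 30 (26.7%) were called, near the 28.1% of all genes. Of these, 6 were higher and 2 lower, where 14.8% and 13.3% of all genes were, and the groups did not overlap for 7 higher and 2 lower members and for 29.3% of all genes. The median of the 30 members tested was 0.09 there, beside 0.009 for all genes. Members with few reads passed the filter through their higher groups, so these counts describe the members and test nothing about the list.

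Of the 21 members called in p53-Y220C cells, 12 were also called within the 8 libraries with PTPRC reads, where 31.7% of all genes were called, and 10 within the 8 without, where 21.3% were. Each such fit had 1 library in one arm of a line, which was assumed to vary like the other groups, and 4 residual degrees of freedom. With PTPRC reads this was the DMSO arm of both lines, and without them the MS78 arm of both. STAT2, IRF7, OAS2, ISG20, BST2, IFI27, IFI44 and PARP9 were called in neither set of libraries, ISG15 was called only in the libraries without PTPRC reads, and IRF1, IFITM3 and IFI35 only in those with them. All 21 kept their direction with PTPRC reads, and 20 did so without them, where OAS2 was not tested. Of the 8 called in p53-null cells, 3 (IRF9, OASL and ISG20) were also called with PTPRC reads, where 14.2% of all genes were, and 3 (IRF1, OAS3 and OASL) without them, where 6.54% were. With a term for PTPRC reads added to the fit of all 16 libraries, 20 of the 21 and all 8 were called (background 46.3% and 25.7%), and the call lost was that of IFI27 (adjusted p = 0.0558).

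**Figure D2:**
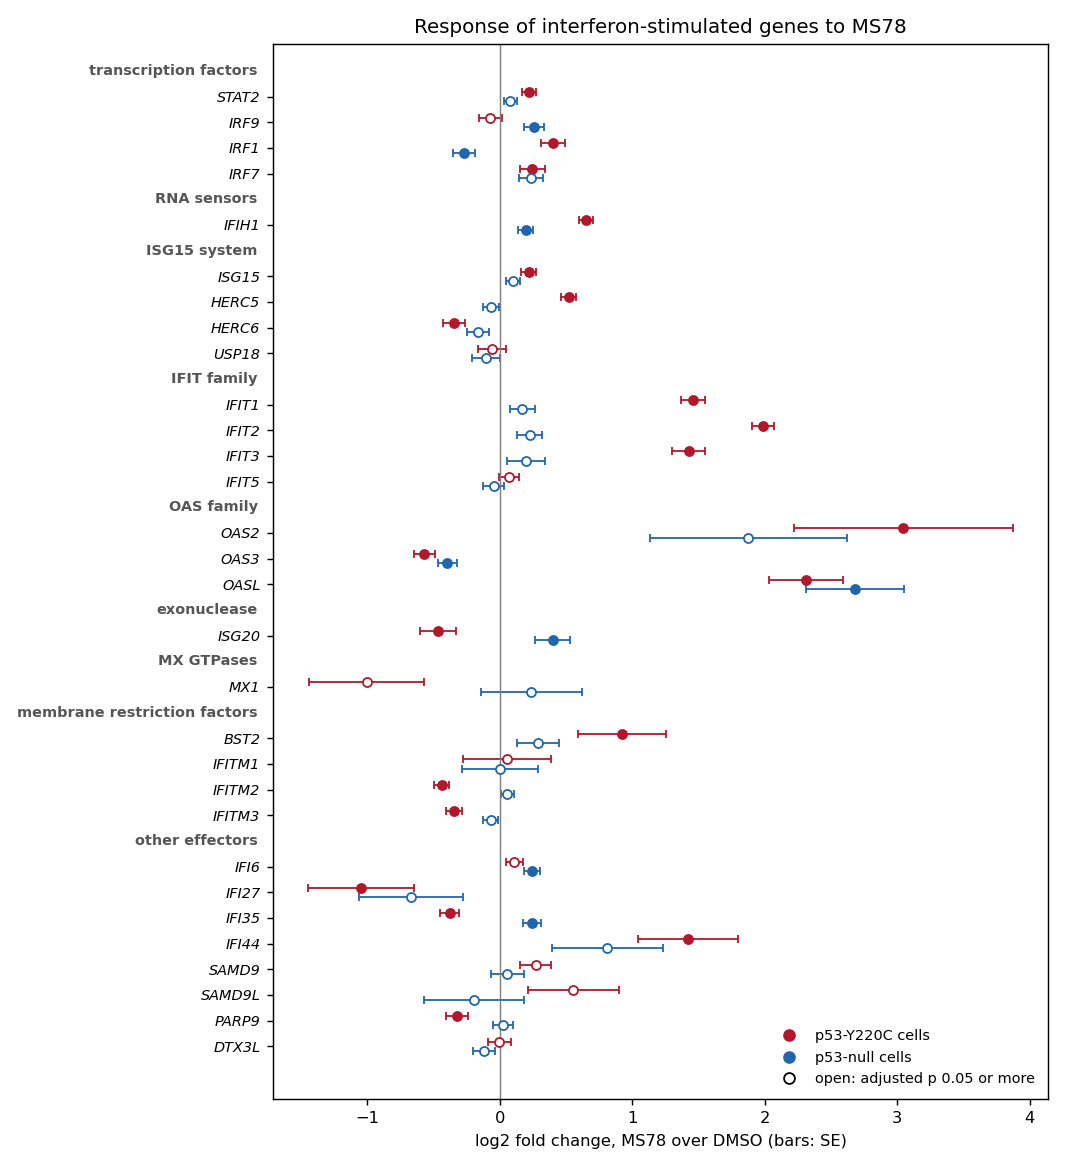
Log2 fold change of MS78 over DMSO (x axis, bars show SE) for the 30 interferon-stimulated genes tested, grouped by role, in p53-Y220C cells (red) and p53-null cells (blue). Filled points had an adjusted p under 0.05, and IFIT1, IFIT2 and IFIT3 lie at 1.46, 1.99 and 1.42 in p53-Y220C cells and at 0.17, 0.22 and 0.20 in p53-null cells.

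The IFIT proteins bind viral RNA through helical repeats and lie in a gene cluster on chromosome 10. In p53-Y220C cells 3 of the 4 rose. IFIT2 (ENSG00000119922, chromosome 10, 89283694 to 89309276 in GENCODE 29, GRCh38), which can act in a complex with its relatives, had 30.3, 29.6, 30.3 and 32.2 CPM in Y220C MS78, against 7.16, 7.77, 8.22 and 7.78 CPM in Y220C DMSO. The groups were far apart, and IFIT2 rose 3.96-fold (log2 fold change 1.99, SE 0.08, adjusted p = 2.98e-14). In p53-null cells it had 6.34, 5.00, 5.68 and 5.33 CPM in Null MS78, against 4.25, 4.53, 4.70 and 5.61 CPM in Null DMSO. These values overlapped, and the change was not called (log2 fold change 0.22, SE 0.09, adjusted p = 0.0860), although it passed at 0.31 (adjusted p = 0.0186) without Null DMSO replicate 4, at 0.28 (adjusted p = 0.0470) without Null MS78 replicate 2 and at 0.28 (adjusted p = 0.0348) with a term for PTPRC reads.

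IFIT1 (ENSG00000185745, chromosome 10, 89392546 to 89406486), which binds RNA whose cap lacks the host's methyl mark, had 19.7, 16.5, 18.1 and 18.2 CPM in Y220C MS78, against 7.24, 6.37, 6.86 and 5.96 CPM in Y220C DMSO. It rose 2.74-fold (log2 fold change 1.46, SE 0.09, adjusted p = 3.59e-11). In p53-null cells the level was 8.03 ± 0.720 CPM in Null MS78 and 7.11 ± 0.713 CPM in Null DMSO (SD, n = 4 each), with overlapping libraries (log2 fold change 0.17, SE 0.09, adjusted p = 0.199). IFIT3 (ENSG00000119917, chromosome 10, 89327894 to 89340971), a partner that stabilises IFIT1 on RNA, had 20.1, 23.1, 20.9 and 19.1 CPM in Y220C MS78, against 8.74, 7.19, 7.14 and 7.87 CPM in Y220C DMSO. It rose 2.68-fold (log2 fold change 1.42, SE 0.12, adjusted p = 5.58e-09). The p53-null libraries had 5.48, 3.53, 4.02 and 4.85 CPM in Null MS78, against 5.02, 3.19, 3.45 and 3.89 CPM in Null DMSO. In each p53-null group replicate 1 was the highest, and the groups overlapped (log2 fold change 0.20, SE 0.15, adjusted p = 0.356). IFIT5 (ENSG00000152778, chromosome 10, 89414586 to 89421001), which binds RNA with a free triphosphate end, had 21.7, 18.01, 20.3 and 18.8 CPM in Y220C MS78, against 16.8, 18.9, 19.4 and 19.9 CPM in Y220C DMSO. Its groups overlapped in both lines, with log2 fold changes of 0.07 (adjusted p = 0.454) in p53-Y220C cells and -0.05 (adjusted p = 0.717) in p53-null cells.

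The rise of IFIT1, IFIT2 and IFIT3 in p53-Y220C cells was called in each set of libraries. Among those with PTPRC reads the log2 fold changes were 1.29 (adjusted p = 7.46e-06), 2.11 (adjusted p = 8.24e-09) and 1.27 (adjusted p = 2.05e-05). Among those without, they were 1.63 (adjusted p = 1.70e-05), 1.94 (adjusted p = 1.39e-06) and 1.44 (adjusted p = 2.42e-05). In p53-null cells IFIT3 was at -0.31 (adjusted p = 0.349) with PTPRC reads and 0.64 (adjusted p = 0.0402) without, and the difference between the sets was not tested. Exons of IFIT2 overlap those of LIPA on the opposite strand and of AL353751.1 on the same strand, and whether the counting used strand is not given in the sources used here.

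**Figure D3:**
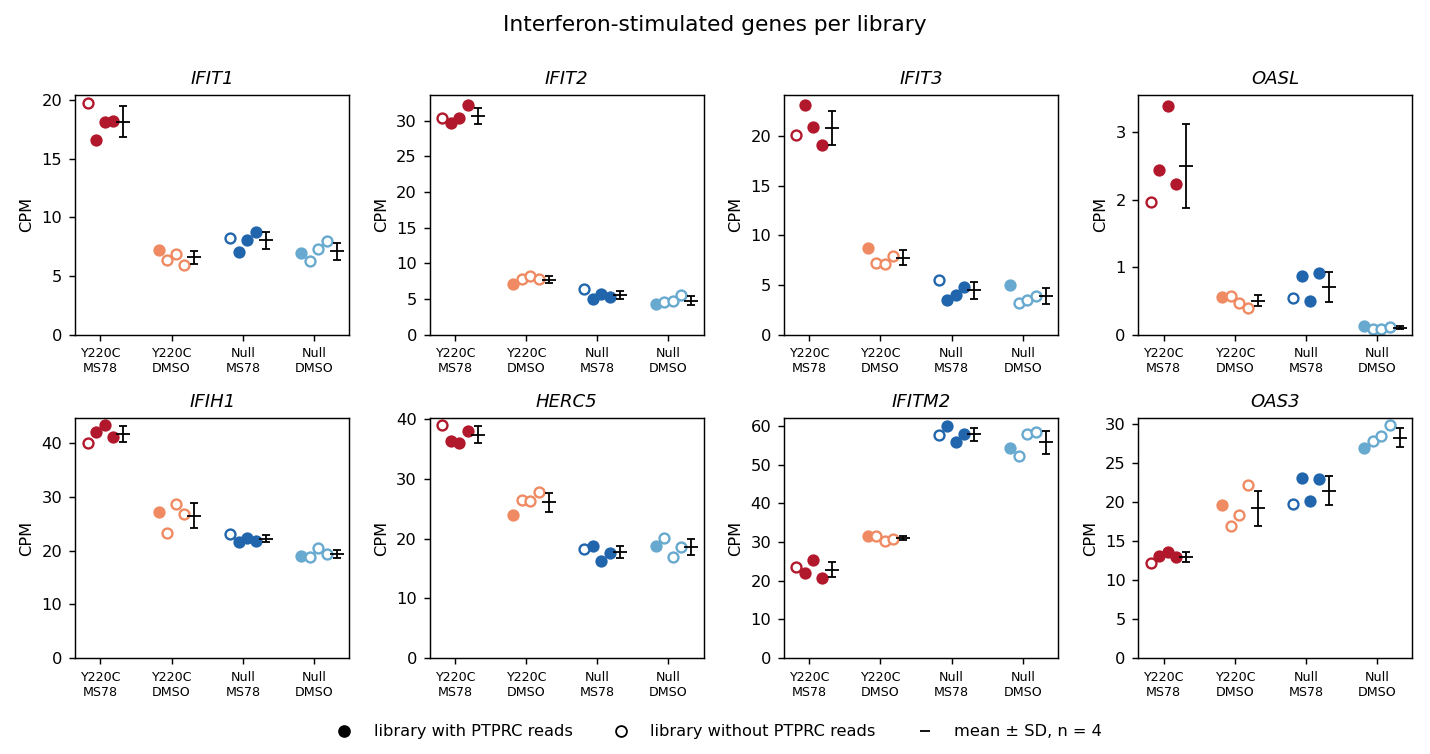
CPM of 8 interferon-stimulated genes (y axis, each panel from 0) in each library of the 4 groups (x axis), with filled points for libraries with PTPRC reads, open points for those without, and a bar for mean ± SD (n = 4). The 4 Y220C MS78 libraries lie at 16.5 to 19.7 CPM for IFIT1 and 29.6 to 32.2 CPM for IFIT2, above every library of the other groups, and OAS3 is highest in Null DMSO.

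Of the sensing and ISG15 conjugation genes tested, IFIH1, ISG15 and HERC5 rose and HERC6 fell in p53-Y220C cells. IFIH1 (ENSG00000115267, chromosome 2, 162267079 to 162318703), the sensor MDA5 for long double-stranded RNA, had 40.0, 42.1, 43.4 and 41.1 CPM in Y220C MS78, against 27.2, 23.3, 28.7 and 26.8 CPM in Y220C DMSO. It rose 1.57-fold (log2 fold change 0.65, SE 0.05, adjusted p = 3.16e-09) and the groups did not overlap. In p53-null cells IFIH1 had 23.0, 21.7, 22.4 and 21.8 CPM in Null MS78, against 19.0, 18.8, 20.5 and 19.4 CPM in Null DMSO, a smaller rise of 1.14-fold (log2 fold change 0.19, SE 0.06, adjusted p = 0.0145) that was not called without Null DMSO replicate 2 (0.17, adjusted p = 0.0507). HERC5 (ENSG00000138646, chromosome 4, 88457117 to 88506163), the main ligase that attaches ISG15 to proteins in human cells, had 39.0, 36.3, 36.1 and 38.1 CPM in Y220C MS78, against 24.0, 26.5, 26.3 and 27.7 CPM in Y220C DMSO. Every Y220C MS78 library was above every Y220C DMSO library, a rise of 1.43-fold (log2 fold change 0.52, SE 0.06, adjusted p = 2.22e-07). HERC5 overlapped in p53-null cells, at 17.8 ± 1.08 CPM in Null MS78 and 18.6 ± 1.28 CPM in Null DMSO (log2 fold change -0.07, SE 0.06, adjusted p = 0.473). ISG15 itself (ENSG00000187608, chromosome 1, 1001138 to 1014540) rose 1.16-fold in p53-Y220C cells, with 38.0, 39.4, 34.8 and 34.1 CPM in Y220C MS78, against 33.8, 32.9, 30.6 and 28.7 CPM in Y220C DMSO (adjusted p = 0.00360). In p53-null cells its change of 0.10 was not called (adjusted p = 0.192). HERC6 (ENSG00000138642, chromosome 4, 88378739 to 88443111), whose mouse counterpart is an ISG15 ligase, fell in p53-Y220C cells, with 11.1, 13.0, 12.7 and 13.5 CPM in Y220C MS78, against 16.8, 14.9, 15.8 and 16.6 CPM in Y220C DMSO (log2 fold change -0.35, SE 0.08, adjusted p = 0.00139). USP18 (ENSG00000184979, chromosome 22, 18149899 to 18177397), which removes ISG15 and dampens receptor signalling, was not called in either line (-0.06, adjusted p = 0.660, in p53-Y220C cells and -0.10, adjusted p = 0.524, in p53-null cells).

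The OAS family diverged, with OASL higher and OAS3 lower in both lines. OAS enzymes make oligoadenylates that activate RNase L, and OASL is a relative without that activity. OASL (ENSG00000135114, chromosome 12, 121019111 to 121039242) had 40, 50, 65 and 44 reads in Y220C MS78, against 13, 12, 10 and 9 reads in Y220C DMSO, and 14, 24, 12 and 19 reads in Null MS78, against 3, 2, 2 and 3 reads in Null DMSO. The MS78 libraries were above the DMSO libraries in both lines, by 4.95-fold in p53-Y220C cells (log2 fold change 2.31, SE 0.28, adjusted p = 8.02e-07) and by 6.42-fold in p53-null cells (log2 fold change 2.68, SE 0.37, adjusted p = 1.01e-05). Both calls held in each set of libraries, at 2.26 (adjusted p = 0.00305) with PTPRC reads and 2.02 (adjusted p = 0.0115) without in p53-Y220C cells, and at 2.50 (adjusted p = 0.0309) with and 2.42 (adjusted p = 0.0466) without in p53-null cells. With counts rebuilt from TPM and mean length (length-scaled TPM) in place of reads the p53-Y220C value was 1.68.

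OAS3 (ENSG00000111331, chromosome 12, 112938352 to 112973249), the largest of the enzymes, had 12.1, 13.0, 13.6 and 12.9 CPM in Y220C MS78, against 19.5, 16.8, 18.3 and 22.1 CPM in Y220C DMSO. It fell with MS78 in p53-Y220C cells (log2 fold change -0.57, SE 0.08, adjusted p = 4.83e-06). In p53-null cells OAS3 had 19.7, 23.1, 20.1 and 22.9 CPM in Null MS78, against 26.9, 27.7, 28.4 and 29.8 CPM in Null DMSO and fell too (log2 fold change -0.40, SE 0.07, adjusted p = 0.000195), and neither pair of groups overlapped. With length-scaled TPM the p53-null call was lost (adjusted p = 0.0561). OAS2 (ENSG00000111335, chromosome 12, 112978395 to 113011723) was at few reads, with 6, 20, 11 and 11 reads in Y220C MS78, against 4, 0, 1 and 1 reads in Y220C DMSO, and 4, 13, 13 and 16 reads in Null MS78, against 9, 0, 0 and 3 reads in Null DMSO. Its call in p53-Y220C cells (log2 fold change 3.05, SE 0.83, adjusted p = 0.00460) was lost within the libraries with PTPRC reads (2.01, adjusted p = 0.0715), and OAS2 did not pass the filter in those without. The value was 4.05 without Y220C DMSO replicate 1, the only Y220C DMSO library with PTPRC reads, and 2.25 with a term for PTPRC reads. In p53-null cells OAS2 was not called (log2 fold change 1.88, SE 0.74, adjusted p = 0.0669), but it passed at 3.37 (adjusted p = 0.00760) without Null DMSO replicate 1, at 2.17 (adjusted p = 0.0376) without Null MS78 replicate 1 and at 1.88 (adjusted p = 0.0232) with no filter on low counts. OAS1 (ENSG00000089127, chromosome 12, 112906777 to 112933222) had 0 to 8 reads per library and did not pass the filter.

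Transcription factors of the response changed little, the largest called change being the 1.32-fold rise of IRF1 in p53-Y220C cells. STAT2 (ENSG00000170581, chromosome 12, 56341597 to 56360155), a subunit of ISGF3, had 36.6, 34.8, 37.6 and 36.8 CPM in Y220C MS78, against 32.5, 29.8, 29.5 and 33.2 CPM in Y220C DMSO, a rise of 1.16-fold without overlap (log2 fold change 0.22, SE 0.05, adjusted p = 0.00112), and it was not called in p53-null cells (0.08, adjusted p = 0.282). IRF1 (ENSG00000125347, chromosome 5, 132481609 to 132490798), a factor strongly induced by interferon gamma, had 12.9, 14.0, 15.96 and 12.9 CPM in Y220C MS78, against 10.9, 11.2, 10.1 and 9.96 CPM in Y220C DMSO. It rose in p53-Y220C cells (log2 fold change 0.40, SE 0.09, adjusted p = 0.000833). In p53-null cells IRF1 had 10.9, 12.8, 13.9 and 14.1 CPM in Null MS78, against 16.5, 14.2, 15.6 and 15.8 CPM in Null DMSO and fell (log2 fold change -0.27, SE 0.08, adjusted p = 0.0209). The call was lost without Null DMSO replicate 1 (-0.23, adjusted p = 0.0695) or Null MS78 replicate 1 (-0.19, adjusted p = 0.0875). IRF9 (ENSG00000213928, chromosome 14, 24161053 to 24166565), the DNA-binding subunit of ISGF3, overlapped in p53-Y220C cells (-0.07, adjusted p = 0.505). In p53-null cells IRF9 had 15.4, 17.0, 18.1 and 16.7 CPM in Null MS78, against 13.1, 14.1, 15.4 and 13.6 CPM in Null DMSO and rose (log2 fold change 0.26, SE 0.08, adjusted p = 0.0171), and this call was lost without Null DMSO replicate 1 (adjusted p = 0.0528) or Null MS78 replicate 3 (adjusted p = 0.0648). IRF7 (ENSG00000185507, chromosome 11, 612553 to 615999), which induces interferon alpha genes, had 10.3, 10.95, 8.97 and 9.99 CPM in Y220C MS78, against 7.97, 8.50, 9.48 and 8.0 CPM in Y220C DMSO. It was called higher in p53-Y220C cells, although the libraries overlapped (log2 fold change 0.24, SE 0.09, adjusted p = 0.0362). The IRF7 call did not hold on leaving out replicate 1, 2 or 4 of either Y220C group (0.20 to 0.25, adjusted p = 0.0563 to 0.113), in DESeq2 (adjusted p = 0.0554), with no filter (adjusted p = 0.0909) and with length-scaled TPM (adjusted p = 0.135). In p53-null cells IRF7 was not called (0.23, adjusted p = 0.0638), but it passed without Null DMSO replicate 2 (0.32, adjusted p = 0.0101). Exons of IRF1 and IRF9 overlap those of other genes.

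Restriction factors of the cell surface and endosome fell or were not called, apart from BST2. IFITM2 (ENSG00000185201, chromosome 11, 307631 to 315272), which acts on fusion in endosomes, had 23.4, 21.9, 25.4 and 20.7 CPM in Y220C MS78, against 31.4, 31.6, 30.3 and 30.8 CPM in Y220C DMSO and fell (log2 fold change -0.44, SE 0.06, adjusted p = 2.00e-06). IFITM3 (ENSG00000142089, chromosome 11, 319669 to 327537) had 94.1, 84.8, 77.96 and 71.8 CPM in Y220C MS78, against 103, 111, 102 and 103 CPM in Y220C DMSO and fell (log2 fold change -0.35, SE 0.06, adjusted p = 6.53e-05). Neither was called in p53-null cells (0.06, adjusted p = 0.452, for IFITM2 and -0.07, adjusted p = 0.404, for IFITM3). IFITM1 (ENSG00000185885, chromosome 11, 313506 to 315272) had 6 to 37 reads per library and overlapped in both lines (0.05, adjusted p = 0.912, in p53-Y220C cells). The 3 IFITM genes are close copies, and IFITM1 and IFITM2 share exons in the annotation, so their separate values are uncertain. BST2 (ENSG00000130303, chromosome 19, 17402939 to 17405648), or tetherin, which holds budding virions at the cell surface, had 12, 36, 33 and 41 reads in Y220C MS78, against 36, 8, 15 and 12 reads in Y220C DMSO. The p53-Y220C libraries with PTPRC reads had 33 to 41 reads and those without had 8 to 15 reads, whatever the treatment. Its call over all 8 p53-Y220C libraries (log2 fold change 0.92, SE 0.33, adjusted p = 0.0267) was lost within the libraries with PTPRC reads (0.27, adjusted p = 0.484) and within those without (0.12, adjusted p = 0.889). It was also lost on leaving out replicate 2, 3 or 4 of either Y220C group (0.70 to 0.87, adjusted p = 0.0607 to 0.101) and in a fit of the p53-Y220C libraries alone (adjusted p = 0.0902). In p53-null cells BST2 had 15.9, 17.0, 16.8 and 18.04 CPM in Null MS78, against 14.6, 13.5, 14.4 and 12.8 CPM in Null DMSO. These groups did not overlap, yet the change was not called (log2 fold change 0.29, SE 0.16, adjusted p = 0.209), and it passed only in a fit of the p53-null libraries alone (0.28, adjusted p = 0.00417).

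The exonuclease and the MX GTPases gave mixed values. ISG20 (ENSG00000172183, chromosome 15, 88636153 to 88656483), an RNA exonuclease, had 4.47, 4.14, 5.16 and 4.16 CPM in Y220C MS78, against 6.08, 7.68, 5.63 and 5.42 CPM in Y220C DMSO and fell in p53-Y220C cells (log2 fold change -0.47, SE 0.14, adjusted p = 0.00740). In p53-null cells ISG20 had 6.49, 7.31, 5.76 and 5.62 CPM in Null MS78, against 3.82, 5.22, 5.52 and 4.63 CPM in Null DMSO and rose (log2 fold change 0.40, SE 0.13, adjusted p = 0.0277), but that call was lost without replicate 1 or 4 of Null DMSO or replicate 1 or 2 of Null MS78 (0.31 to 0.38, adjusted p = 0.0588 to 0.116). With length-scaled TPM neither ISG20 call held (adjusted p = 0.448 in p53-Y220C cells and 0.112 in p53-null cells). MX1 (ENSG00000157601, chromosome 21, 41420304 to 41459214), a dynamin-like GTPase, had 4, 8, 5 and 4 reads in Y220C MS78, against 11, 7, 13 and 16 reads in Y220C DMSO. These overlapped and were not called (log2 fold change -1.01, SE 0.43, adjusted p = 0.0600), but they passed without Null MS78 replicate 1 (adjusted p = 0.0453), without replicate 2 of Y220C DMSO or of Y220C MS78 (adjusted p = 0.0426 each) and with a term for PTPRC reads (adjusted p = 0.0288). In p53-null cells MX1 had 7, 11, 19 and 19 reads in Null MS78, against 14, 11, 12 and 10 reads in Null DMSO (adjusted p = 0.705). Its relative MX2 (ENSG00000183486, chromosome 21, 41361943 to 41409390) had 0 to 4 reads per library.

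Among the other effectors, IFI35 (ENSG00000068079, chromosome 17, 43006725 to 43014456), a leucine zipper protein that partners NMI, had 19.3, 16.5, 17.2 and 15.8 CPM in Y220C MS78, against 22.6, 24.0, 20.8 and 22.0 CPM in Y220C DMSO, and fell (log2 fold change -0.38, SE 0.07, adjusted p = 0.000188). In p53-null cells IFI35 had 23.4, 22.5, 24.4 and 26.7 CPM in Null MS78, against 19.8, 21.8, 21.3 and 18.9 CPM in Null DMSO and rose (log2 fold change 0.24, SE 0.07, adjusted p = 0.0104). PARP9 (ENSG00000138496, chromosome 3, 122527924 to 122564577) and DTX3L (ENSG00000163840, chromosome 3, 122564238 to 122575203) form a complex of an ADP-ribosyltransferase and a ubiquitin ligase, and their genes overlap at their starts on opposite strands. PARP9 had 9.97, 10.7, 10.7 and 12.1 CPM in Y220C MS78, against 13.8, 13.4, 13.7 and 13.6 CPM in Y220C DMSO and fell in p53-Y220C cells (log2 fold change -0.33, SE 0.08, adjusted p = 0.00269), while DTX3L averaged 16.7 ± 1.36 CPM in Y220C MS78 and 16.7 ± 2.03 CPM in Y220C DMSO. Neither was called in p53-null cells (adjusted p = 0.861 for PARP9 and 0.327 for DTX3L). IFI6 (ENSG00000126709, chromosome 1, 27666061 to 27672218), a small membrane protein, rose in p53-null cells, with 34.2, 31.6, 34.1 and 39.2 CPM in Null MS78, against 29.2, 28.9, 30.1 and 29.1 CPM in Null DMSO (log2 fold change 0.24, SE 0.06, adjusted p = 0.00288). In p53-Y220C cells IFI6 overlapped (0.11, adjusted p = 0.155). IFI44 (ENSG00000137965, chromosome 1, 78649796 to 78664078) was called higher in p53-Y220C cells, where it had 18, 26, 25 and 10 reads in Y220C MS78, against 7, 10, 11 and 4 reads in Y220C DMSO, with overlap (log2 fold change 1.42, SE 0.37, adjusted p = 0.00365). In p53-null cells IFI44 had 8, 13, 9 and 10 reads in Null MS78, against 5, 5, 4 and 8 reads in Null DMSO (adjusted p = 0.168).

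IFI27 (ENSG00000165949, chromosome 14, 94104836 to 94116698), another small membrane protein, had 5, 4, 7 and 7 reads in Y220C MS78, against 14, 13, 13 and 13 reads in Y220C DMSO, and was called lower (log2 fold change -1.05, SE 0.40, adjusted p = 0.0348). The IFI27 call did not hold without any 1 of the 4 Y220C DMSO libraries or replicate 1 or 2 of Y220C MS78 (-1.07 to -0.90, adjusted p = 0.0554 to 0.103), in DESeq2 (adjusted p = 0.0751), with no filter (adjusted p = 0.118) and with length-scaled TPM (adjusted p = 0.187). SAMD9 (ENSG00000205413, chromosome 7, 93099513 to 93118023), an antiviral and growth-limiting protein, was not called in p53-Y220C cells (log2 fold change 0.27, SE 0.12, adjusted p = 0.0656), but it passed without Null DMSO replicate 4, Y220C DMSO replicate 3 or Y220C MS78 replicate 1 (0.27 to 0.33, adjusted p = 0.0345 to 0.0445). Its relative SAMD9L (ENSG00000177409, chromosome 7, 93130055 to 93148369) had 6 to 26 reads per library and was not called (0.55, adjusted p = 0.197), but it passed at 2.41 with length-scaled TPM (adjusted p = 0.00251). In p53-null cells IFI27, SAMD9 and SAMD9L were not called (adjusted p = 0.226, 0.789 and 0.759).

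The 6 members that did not pass the filter were near the limit of detection in every group. DHX58 (ENSG00000108771, chromosome 17, 42101404 to 42112733), the sensor relative LGP2, had 3 to 11 reads per library. RSAD2 (ENSG00000134321, chromosome 2, 6865806 to 6898239), the radical SAM enzyme viperin, had 0 to 4 reads, and IFI44L (ENSG00000137959, chromosome 1, 78619922 to 78646145) had 0 to 3 reads. XAF1 (ENSG00000132530, chromosome 17, 6755447 to 6775647), which binds the apoptosis inhibitor XIAP, had 0 to 5 reads, and the others were OAS1 and MX2. They had no test in the fit used here. With no filter on low counts all 6 were tested in the 6 comparisons, and 1 of these 36 tests passed, that of IFI44L between lines under DMSO (adjusted p = 0.0449), where it had 1, 2, 2 and 2 reads in Y220C DMSO, against 0, 0, 0 and 0 reads in Null DMSO. DESeq2 gave an adjusted p for 14 of the 36 and called 0, and length-scaled TPM tested DHX58 alone, with 0 calls in 6.

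By edgeR's test of the interaction of line and MS78, the response differed between the lines for 12 of the 30 members tested (40.0%), where 26.8% of all genes did. This test uses the same samples as the response of each line. In 6 the p53-Y220C response was the more positive, and in 6 the more negative, where 14.4% and 12.4% of all genes were. The difference in log2 fold change (p53-Y220C minus p53-null) was 1.76 for IFIT2 (SE 0.12, adjusted p = 2.34e-09), 1.29 for IFIT1 (SE 0.13, adjusted p = 3.65e-07) and 1.23 for IFIT3 (SE 0.19, adjusted p = 7.10e-05). The other positive differences were 0.67 for IRF1, 0.59 for HERC5 and 0.46 for IFIH1. The negative ones were -0.87 for ISG20, -0.62 for IFI35, -0.50 for IFITM2, -0.35 for PARP9, -0.33 for IRF9 and -0.28 for IFITM3. For OASL the lines were not shown to differ, with a difference of -0.38 and an SE of 0.44 (adjusted p = 0.597), and for OAS3 it was -0.17 with an SE of 0.11 (adjusted p = 0.246). Within the libraries with PTPRC reads 11 of the 12 were called, all but PARP9 (-0.34, adjusted p = 0.233), where 11.3% of all genes were. Within those without, only IRF1, IFIT1 and IFIT2 were called, where 2.51% of all genes were, and IRF9 turned to 0.09 (adjusted p = 0.850). With a term for PTPRC reads all 12 were called (background 26.9%). The IRF9 call was also lost without replicate 1, 2 or 4 of Null DMSO, 2, 3 or 4 of Null MS78, 1 or 2 of Y220C DMSO or 2, 3 or 4 of Y220C MS78 (-0.33 to -0.29, adjusted p = 0.0551 to 0.0891), in DESeq2 (adjusted p = 0.0522), with length-scaled TPM (adjusted p = 0.0546) and with a replicate block (-0.33, adjusted p = 0.0526). The PARP9 call was lost without replicate 2 or 4 of Null DMSO, 2 of Null MS78 or 1 of Y220C MS78 (-0.33 to -0.29, adjusted p = 0.0508 to 0.0600) and with length-scaled TPM (adjusted p = 0.0529), and that of ISG20 with length-scaled TPM (adjusted p = 0.109). BST2 was not called (0.63, adjusted p = 0.224), but it passed at 1.20 (adjusted p = 0.0155) without Y220C DMSO replicate 1 and at 0.91 (adjusted p = 0.0335) without Y220C MS78 replicate 1, and SAMD9L passed at 3.01 (adjusted p = 0.0167) with length-scaled TPM.

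The 2 lines themselves differed in these genes, in both directions. BST2 had the largest difference among the members, being 17.1-fold lower in p53-Y220C than in p53-null cells under DMSO (log2 fold change -4.09, SE 0.24, adjusted p = 2.29e-11) and 11.01-fold lower under MS78 (log2 fold change -3.46, SE 0.22, adjusted p = 2.60e-11). It had 12 to 41 reads in Y220C MS78, against 372 to 472 reads in Null MS78, and 8 to 36 reads in Y220C DMSO, against 314 to 341 reads in Null DMSO. Under DMSO the difference was -3.25 with PTPRC reads and -4.63 without, and under MS78 it was -3.21 with and -4.73 without. The values -3.25 and -4.73 each compare 1 library of one line with 1 of the other. All 4 membrane restriction factors were called lower in p53-Y220C cells under both treatments. IFITM2 was 1.80-fold lower under DMSO, at 31.0 ± 0.596 CPM in Y220C DMSO and 55.7 ± 2.95 CPM in Null DMSO (log2 fold change -0.85, SE 0.05, adjusted p = 4.58e-11). IFITM3 was 1.39-fold lower, at 105 ± 4.43 CPM in Y220C DMSO and 145 ± 6.73 CPM in Null DMSO (log2 fold change -0.47, SE 0.06, adjusted p = 1.04e-06). The IFITM1 call under DMSO (-0.91, adjusted p = 0.0196) was lost without Null DMSO replicate 4 or replicate 3 or 4 of Y220C DMSO (-0.83 to -0.74, adjusted p = 0.0539 to 0.0695). It was also lost within the libraries with PTPRC reads, 1 per line (-0.47).

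Among the members higher in p53-Y220C cells, OASL was 4.58-fold higher under DMSO (log2 fold change 2.20, SE 0.39, adjusted p = 8.31e-05), with the reads given above not overlapping. It was not called within the libraries with PTPRC reads, 1 per line (2.06). IFIT3 was 1.99-fold higher (log2 fold change 0.99, SE 0.14, adjusted p = 5.35e-06), IFIT2 1.61-fold (log2 fold change 0.69, SE 0.09, adjusted p = 3.01e-06) and IFIT5 1.41-fold (log2 fold change 0.49, SE 0.08, adjusted p = 2.00e-05), whereas IFIT1 was not called (-0.11, adjusted p = 0.373). IFIH1 (0.45), HERC5 (0.49) and SAMD9 (0.51) were also higher under DMSO. IRF1 (-0.56), OAS3 (-0.55), ISG15 (-0.38), IFI6 (-0.34) and IRF9 (-0.30) were lower. In all, 18 of 30 members (60.0%) were called under DMSO, where 50.2% of all genes were. There were 9 in each direction, and 24.7% and 25.5% of all genes were called higher and lower. The 4 libraries of one line did not overlap those of the other for 6 higher and 9 lower members, and this held for 43.6% of all genes. The higher members also included HERC6 and ISG20. The call of HERC6 (0.22, adjusted p = 0.0245) was lost without replicate 1 or 2 of Null DMSO or 1 or 4 of Y220C DMSO (0.17 to 0.22, adjusted p = 0.0509 to 0.0897) and that of ISG20 (0.37, adjusted p = 0.0254) without replicate 1 or 4 of Null DMSO or 2 of Y220C DMSO (0.25 to 0.35, adjusted p = 0.0541 to 0.117). Length-scaled TPM also ended the calls of HERC6 (adjusted p = 0.202), ISG20 (0.04, adjusted p = 0.909) and IRF9 (adjusted p = 0.201).

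Under MS78, 24 of 30 members (80.0%) differed between the lines, where 61.8% of all genes did. In p53-Y220C cells 12 were higher and 12 lower, where 30.7% and 31.2% of all genes were. For 11 members in each direction the libraries did not overlap, which held for 56.4% of all genes. All 4 IFIT genes were higher in p53-Y220C cells, by 5.47-fold for IFIT2, 4.66-fold for IFIT3, 2.27-fold for IFIT1 and 1.53-fold for IFIT5. OASL (3.53-fold), HERC5 (2.10-fold), IFIH1 (1.87-fold), IFI44 (2.41-fold), SAMD9 (1.65-fold) and SAMD9L (2.45-fold) were higher too. With length-scaled TPM the SAMD9L log2 difference was 2.89 in place of 1.29. STAT2 (0.21) and DTX3L (0.23) completed the higher members, and the DTX3L call (adjusted p = 0.0205) was lost without Null MS78 replicate 4 or replicate 2 or 4 of Y220C MS78 (0.21 each, adjusted p = 0.0559 to 0.0584). Beside the membrane factors, MX1 (-1.14), OAS3 (-0.73), IRF9 (-0.63), ISG20 (-0.50), IFI35 (-0.49), IFI6 (-0.48), PARP9 (-0.44) and ISG15 (-0.26) were lower. The MX1 call (adjusted p = 0.0252) was lost without replicate 3 or 4 of Null MS78 or 1 or 4 of Y220C MS78 (-1.04 to -0.86, adjusted p = 0.0656 to 0.105), with no filter (adjusted p = 0.0547) and with length-scaled TPM (adjusted p = 0.153), and was -0.45 in the libraries without PTPRC reads. The IFITM1 call (adjusted p = 0.0224) was lost without replicate 1 or 4 of Y220C MS78 (-0.78 and -0.63, adjusted p = 0.0576 and 0.0809), within the libraries with PTPRC reads (-0.74, adjusted p = 0.126) and within those without (-1.19, adjusted p = 0.202). Within the libraries with PTPRC reads 10 of the 18 DMSO calls and 22 of the 24 MS78 calls were made (background 23.2% and 57%). Within those without, 16 and 13 were made (background 37.4% and 25.6%), and every call kept its direction in both sets. Those lost with PTPRC reads were IRF9, ISG15, HERC5, IFIT5, OASL, ISG20, IFITM1 and IFI6 under DMSO, and MX1 and IFITM1 under MS78. Those lost without PTPRC reads were HERC6 and ISG20 under DMSO, and STAT2, IRF9, ISG15, ISG20, MX1, IFITM1, IFI35, IFI44, SAMD9, SAMD9L and DTX3L under MS78. Under DMSO with PTPRC reads and under MS78 without them each line had 1 library, so calls made or lost there were unreplicated. With a term for PTPRC reads all 18 and all 24 were made (background 50.7% and 62.4%).

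**Figure D4:**
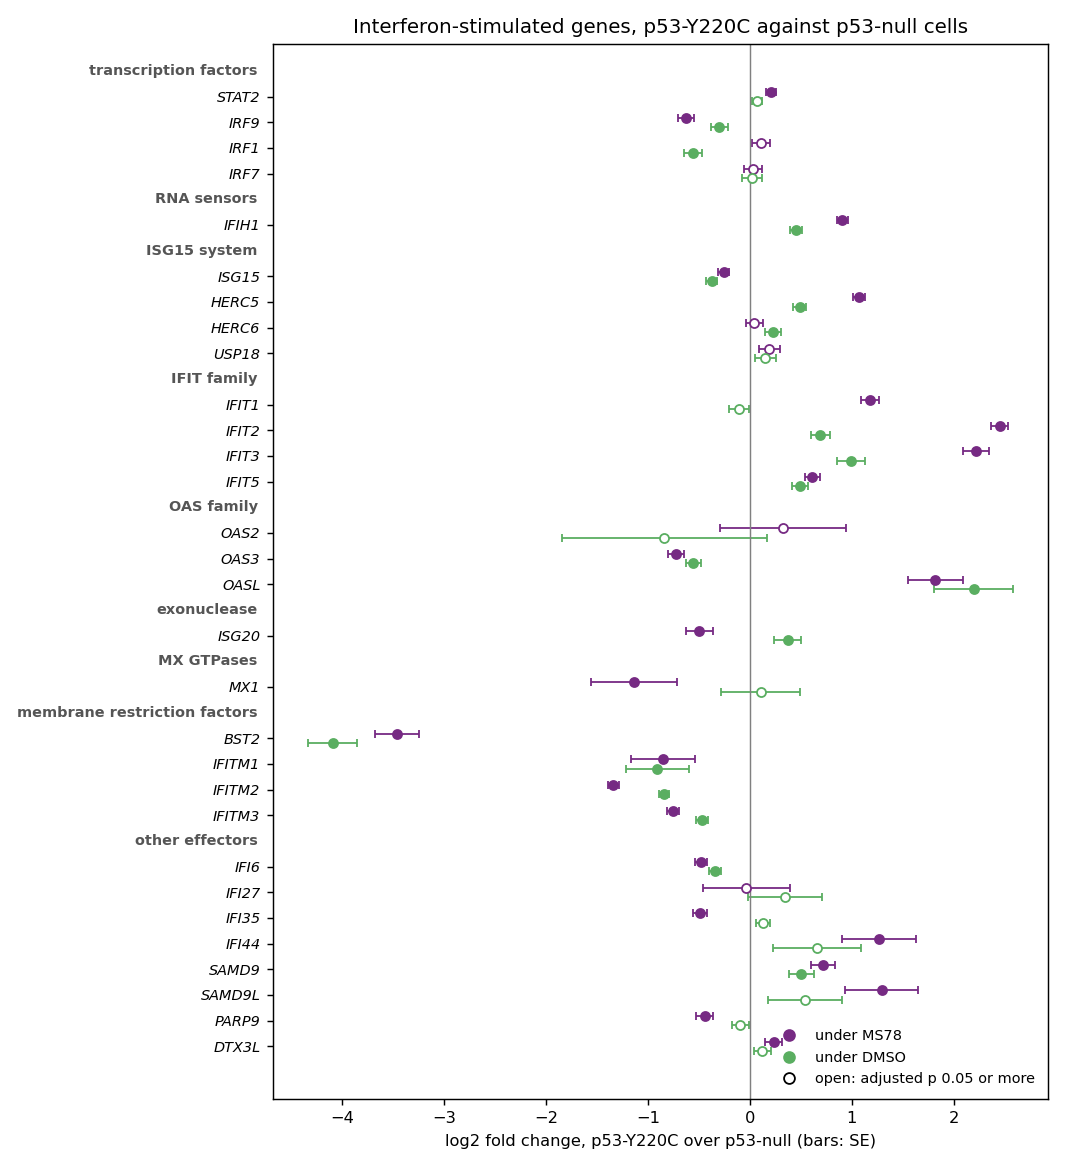
Log2 fold change of p53-Y220C over p53-null cells (x axis, bars show SE) for the 30 interferon-stimulated genes tested, under MS78 (purple) and under DMSO (green). Filled points had an adjusted p under 0.05, and BST2 lies farthest to the left at -3.46 under MS78 and -4.09 under DMSO.

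Libraries with PTPRC reads also held transcripts of interferon gamma. IFNG, which encodes it, ranged over 7 to 25 reads in these 8 libraries and was at 0 in the other 8, while IFNB1, IFNA2, IFNK, IFNL1, IFNL2 and IFNL3 had 0 reads in all 16. IFNE, a type I interferon gene, had 3 to 12 reads with PTPRC reads and 2 to 17 without, and IFNA1 had 0 to 1 with and 0 without. For the members, a term for PTPRC reads in the fit of all 16 libraries called 1 of 30 (3.33%), where 0.982% of all genes were called (0.963% higher and 0.0191% lower). For no member were the 8 libraries with PTPRC reads all above or all below the other 8, which held for 0.841% of all genes. The member called for the term was OAS2, with 4 to 20 reads per library with PTPRC reads and 0 to 6 without (log2 fold change 1.99, SE 0.46, adjusted p = 0.0348), 1 of 3 at an unadjusted p under 0.05. OAS2 did not pass the filter within the libraries without PTPRC reads, so the counts for the term test nothing about the list. The OAS2 call was lost without 10 of the 16 libraries in turn, namely replicate 1 or 3 of Null DMSO, 1, 3 or 4 of Null MS78, 1, 3 or 4 of Y220C DMSO and 1 or 2 of Y220C MS78 (1.67 to 2.39, adjusted p = 0.0511 to 0.343), and with length-scaled TPM (1.67, adjusted p = 0.605). BST2 was not called for the term (0.34, adjusted p = 0.636), which is 1 value over both lines. In p53-Y220C cells its summed reads were 110 in the 3 Y220C MS78 libraries with PTPRC reads and 12 in the 1 without, and 36 in the 1 Y220C DMSO library with and 35 in the 3 without. The part of leukocyte transcripts in the values of OAS2 and BST2 was not tested.

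**Figure D5:**
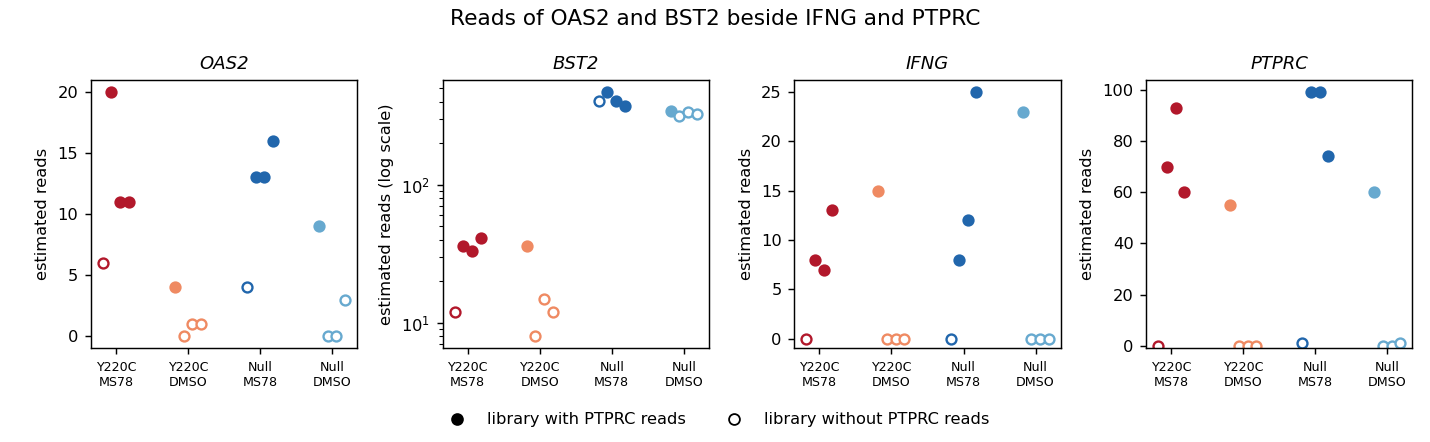
Estimated reads (y axis, log scale for BST2 only) of OAS2, BST2, IFNG and PTPRC in each library of the 4 groups (x axis), with filled points for libraries with PTPRC reads and open points for those without. IFNG has 7 to 25 reads in the filled and 0 in the open libraries, and BST2 in p53-Y220C cells has 33 to 41 reads in the filled and 8 to 15 in the open ones.

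Of 52 other genes of the interferon pathway, 40 were tested. With MS78 in p53-Y220C cells 16 of these (40.0%, where 48.5% of all genes were) were called, 10 higher and 6 lower, with a median log2 fold change of 0.07. DDX58, the RNA sensor RIG-I, rose 1.45-fold (log2 fold change 0.54, SE 0.07, adjusted p = 1.70e-06). TBK1, a kinase downstream of RNA and DNA sensors, rose 1.33-fold, and IL10RB, a subunit of the interferon lambda receptor, rose 1.29-fold. UBE2L6, the ISG15-conjugating enzyme, fell by 0.30 on the log2 scale (adjusted p = 0.0169), TRIM21 by 0.29 and LAMP3 by 0.27. In p53-null cells 10 of 40 (25.0%, beside 28.1% of all genes) were called, 7 higher and 3 lower. TMEM173, the DNA-pathway adaptor STING, rose 1.44-fold (adjusted p = 3.35e-07), DDX58 1.25-fold and IRF3 1.20-fold. LAMP3 (-0.38), the receptor kinase gene JAK2 (-0.23) and TRIM25 (-0.16), a ubiquitin ligase acting on DDX58, fell. The responses differed between the lines for 11 of 40 (27.5%, beside 26.8% of all genes), 5 higher and 6 lower. For the PTPRC term 3 of 40 (7.5%, beside 0.982% of all genes) were called, all higher, namely IFNG, GBP2 and TNFSF10, the last encoding the death ligand TRAIL, and each had more reads in every library with PTPRC reads than in any without. Without PTPRC reads IFNG had 0 reads and TNFSF10 had 0 to 2, so both passed the filter through the libraries with them. The share called for the term therefore tests nothing about the list.

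Between the lines, 22 of 40 pathway genes (55.0%) differed under DMSO, where 50.2% of all genes did, and 29 of 40 (72.5%) under MS78, where 61.8% did. IFI16, a nuclear DNA sensor, was 9.56-fold higher in p53-Y220C than in p53-null cells under MS78 (adjusted p = 2.10e-07) and 15.99-fold higher under DMSO (adjusted p = 1.32e-07). In Null DMSO it had 22 reads in the library with PTPRC reads and 1 to 8 in those without. Its log2 difference under DMSO was 2.58 with PTPRC reads (1 library per line) and 4.89 without. Under MS78 the difference was 2.91 with and 6.44 without (1 library per line). TLR3, an endosomal RNA sensor, was 3.82-fold higher under MS78 and 3.62-fold higher under DMSO. SOCS1, a feedback inhibitor of the receptor kinases, was 2.94-fold lower under MS78 and 4.02-fold lower under DMSO. LAMP3 was 2.64-fold higher under MS78, and SP100, a nuclear body protein, 2.46-fold higher under DMSO. PARP10 was 1.58-fold lower under MS78 and 1.64-fold lower under DMSO. IRF3, which induces interferon beta, was 1.57-fold lower under MS78, and IFNAR2, a subunit of the type I receptor, 1.36-fold lower under DMSO.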

How the data were processed

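Poly(A) RNA-seq of 16 libraries, 4 per group, was used. The deposited per-transcript tables give estimated counts (reads per transcript, not whole numbers) and TPM as the authors' quantification made them, per the file headers, together with transcript length and effective length in bases. The columns are those Salmon writes, per the file headers, and FastQC 0.11.8 and the build hg38 are named in the submitters' processing notes. For the quantifier, its version, annotation, read trimming and use of strand were not given in the sources used here, and reads shared by close copies such as IFITM1, IFITM2 and IFITM3 could be split between them.

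Of 197653 transcripts, 193348 (97.82%) matched GENCODE 29 by ID, and 0.278% to 0.325% of a library's reads were on the others. Estimated counts were summed per gene and rounded to whole numbers, and TPM were summed. The 10 most abundant genes took 6.83% to 9.0% of reads. All 16 libraries were fitted in edgeR 4.0.16 (R 4.3.3) with filterByExpr, TMM scaling and 4 group means, leaving 12 residual degrees of freedom. Quasi-likelihood tests gave p-values adjusted by Benjamini-Hochberg over 15687 genes, and an SE is the log2 fold change divided by the root of F. CPM are reads per TMM-scaled library. A second fit with a term for libraries with at least 10 PTPRC reads had 11 residual degrees of freedom. The same scripts were tested on simulated counts.

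The members and lists were chosen with earlier results of these data known. All 36 members are named. Of the 52 pathway genes found in the annotation, those named per comparison are the 3 with the largest called log2 fold change in each direction at a mean of at least 1 CPM, together with interferon genes and those called for the PTPRC term. A check of the line labels is not reported here. The comparisons share samples. Alternatives were DESeq2 size factors, DESeq2 1.42.0, no filter, length-scaled TPM, each library left out, a replicate block, a term for PTPRC reads, libraries with or without PTPRC reads alone, and only the groups compared.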

Additional observations from a re-analysis of the deposited data

Results flagged for a closer look

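The interaction of line and MS78 passed the threshold of edgeR's test for 12 members in the fit of all 16 libraries. As given above, the calls of IRF9 and PARP9 were lost on leaving out some single libraries. With length-scaled TPM those of IRF9, PARP9 and ISG20 were lost, and IRF9 turned to 0.09 among libraries without PTPRC reads. The differences in log2 fold change (p53-Y220C minus p53-null) were 1.76 for IFIT2, 1.29 for IFIT1, 1.23 for IFIT3, 0.67 for IRF1, 0.59 for HERC5 and 0.46 for IFIH1. Those in which the p53-Y220C response was the more negative were -0.87 for ISG20, -0.62 for IFI35, -0.50 for IFITM2, -0.35 for PARP9, -0.33 for IRF9 and -0.28 for IFITM3.

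In 13 of 144 groups of 4 libraries examined over the members, 1 library stood apart from the other 3, by a gap whose share of the group's range was above Dixon's critical value at 95%, and chance does this in about 1 of 20 groups. STAT2 was at 33.9 CPM in Null MS78 replicate 2 and at 30.5 to 30.8 CPM in the other 3. IRF7 was at 9.96 CPM in Null DMSO replicate 2 and at 7.69 to 8.02 CPM in the other 3. IFITM3 was at 111 CPM in Y220C DMSO replicate 2 and at 102 to 103 CPM in the other 3. IFI27 was at 0.862 CPM (20 reads) in Null DMSO replicate 3 and at 0.302 to 0.386 CPM (7 to 9 reads) in the other 3. The other 9 flags were on members that did not pass the filter and rest on 0 to 4 reads per library. MX2 was at 0 CPM in Y220C DMSO replicate 4 and at 0.0829 CPM in Null MS78 replicate 3. IFI44L was at 0.146 CPM in Y220C MS78 replicate 2 and at 0.0429 CPM in Y220C DMSO replicate 1. RSAD2 was at 0.194 CPM in Null MS78 replicate 4 and at 0.172 CPM in Null DMSO replicate 1. XAF1 was at 0.0521 CPM in Y220C MS78 replicate 3, 0.0429 CPM in Y220C DMSO replicate 1 and 0.0431 CPM in Null DMSO replicate 3. Of the 13 libraries that stood apart, 3 were the only one of their group on their side of the PTPRC split.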

How the results depend on the processing

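The number of members called kept within 1.5 times its value under the DESeq2 size factors, DESeq2 and no filter in all 6 comparisons. Among libraries with PTPRC reads alone it was 12 in place of 21 for MS78 in p53-Y220C cells, 3 in place of 8 in p53-null cells and 10 in place of 18 between lines under DMSO. Among libraries without PTPRC reads it was 10, 4, 3 in place of 12 for the interaction, and 13 in place of 24 between lines under MS78. Both sets hold fewer samples, with 1 library in each DMSO group with PTPRC reads and in each MS78 group without. With length-scaled TPM it was 5 in p53-null cells, where IRF9, IRF1, IFIH1, OAS3 and ISG20 were lost and IFIT2 and HERC6 gained, and 0 in place of 1 for the PTPRC term; the cause was not tested. Leaving out 1 library at a time gave 18 to 22 for MS78 in p53-Y220C cells, 6 to 8 in p53-null cells, 10 to 12 for the interaction, 16 to 18 and 21 to 24 between lines under DMSO and MS78, and 0 to 1 for the PTPRC term. The interaction of IRF9 reversed to 0.093 among libraries without PTPRC reads. No other called member changed sign.

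Same-numbered libraries of different groups had correlations of their deviations from -0.502 to 0.531, a wider range than the -0.298 to 0.273 for other numbers. Whether the numbers pair samples was not tested, and the main fit did not pair them. The replicate block sets 1 effect per number over all groups, so it cannot capture pairing within a treatment. With a replicate block the counts were 21, 8, 11, 18, 24 and 1 for MS78 in p53-Y220C cells, in p53-null cells, the interaction, lines under DMSO, lines under MS78 and the PTPRC term, and the interaction call lost was that of IRF9. Libraries alike in PTPRC reads had correlations of -0.0568 to 0.531 and unlike ones -0.502 to 0.012. Depth limits members with few reads, among them OAS2, OASL, MX1, IFI27, IFI44, IFITM1 and SAMD9L.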

Other observations

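IFIT3 has annotated transcripts that start at different sites, and the estimated reads of the pair followed below are the quantifier's split of shared reads. The transcript starting at 89327894 on chromosome 10 (GENCODE 29, GRCh38) had 314.2, 365.9, 259.9 and 295.1 reads in Y220C MS78, against 198.4, 142.9, 134.4 and 159.2 reads in Y220C DMSO. The one starting at 89332484 had 94.8, 109.1, 140.1 and 80.9 reads in Y220C MS78, against 5.56, 6.14, 17.6 and 17.8 reads in Y220C DMSO. Neither pair of groups overlapped. In p53-null cells the downstream transcript had 26.0, 38.5, 31.7 and 5.87 reads in Null MS78, against 38.7, 22.1, 4.30 and 40.6 reads in Null DMSO, which overlapped. These transcript values were singled out after they were seen and were not tested.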
